A study of Mus musculus with 5 samples.

Results

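The genes for the proteins of the mitochondrial ribosome were examined in bulk RNA-seq of mouse prostate tumors. The set was taken by symbol, as every gene of the deposited count table whose name begins with Mrpl or Mrps followed by a number. It holds 78 of the 24527 genes in the table, 49 with Mrpl symbols and 29 with Mrps symbols. There were 3 samples of prostate tissue from castrated and 2 from intact TripleTg mice. All of these mice carried a human HGF transgene expressed throughout the body (hHGFtg), a human MET transgene at the H11 locus (hMETtg) and a stabilized form of β-catenin (BCAT, an allele that lacks exon 3 of Ctnnb1 after recombination). The MET and β-catenin alleles were switched on by PB-Cre4, a Cre recombinase driven by the probasin promoter, so that both were limited to prostate epithelial cells and to tumors that arose from them. The castrated mice had been operated on at 4 months of age, and both groups were analyzed at 8 months, on a mixed C57BL/6 and C3H SCID background. The comparison of castrated with intact mice addressed what androgen deprivation does to tumors of this genotype, and intact tumors of the same genotype and age were the controls. The labels name the samples as replicates, each with its own identifier, and say no more of their independence. The p-values set the difference between groups against the spread between these samples.

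Mitochondria keep a small genome and translate its messages on a ribosome of their own. This ribosome descends from that of bacteria. Its ribosomal RNAs are made in the mitochondrion, whereas all of its proteins are encoded in the nucleus, made in the cytosol and imported. The large subunit (the Mrpl proteins) forms peptide bonds, and the small subunit (the Mrps proteins) decodes the message. All proteins that the mammalian mitochondrial ribosome makes are core subunits of the respiratory chain and ATP synthase, so it works beside the much larger number of oxidative phosphorylation subunits that the nucleus encodes. The cytosolic ribosome (the Rpl and Rps proteins) makes the rest of the cell's proteins, and several of its proteins share a common ancestor with a mitochondrial counterpart.

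Castrated replicates 1 to 3 gave 28015507, 18951782 and 20492061 counts in total, and the intact replicates gave 21560355 and 22853501. Values are given as CPM, the count of a gene scaled to library size and by the TMM factor of edgeR so that libraries can be compared, or as TPM, which also divides by gene length so that genes can be compared. A gene in the set that could be tested had between 174 and 3418 reads in each library, with a median of 640, so counting error was small beside the difference between samples. The common dispersion in edgeR was 0.238 over all genes tested, and no such value was taken for the set alone. The intact libraries stood apart from each other. Hoxb13, a transcription factor of prostate epithelium, was at 3.45 and 70.7 CPM in the intact libraries, against 5.06, 20.6 and 25.9 CPM in the castrated ones. Probasin (Pbsn), a secretory protein of the prostate under androgen control, had 0 and 112 reads in intact replicates 1 and 2 and 13, 0 and 5 reads in the castrated libraries. On both genes, which were chosen after their values were seen, intact replicate 1 lay with or below the castrated libraries and intact replicate 2 lay apart. By both genes the library labelled intact replicate 1 could not be told from the castrated ones, whereas by the proliferation gene Mki67, at 101 CPM against 18.7 to 40.3 CPM in castrated samples, it lay with intact replicate 2. The labels were kept, and every fold change below rests on them. The medians of the lists of ribosomal and mitochondrial genes, and single values that moved most, are also given without intact replicate 2. The epithelial keratin Krt8 was abundant in all 5 libraries, at 875, 777 and 1144 CPM in castrated and 1155 and 661 CPM in intact samples. The keratins Krt5 and Krt14 differed between the intact libraries in the opposite direction. They were at 28.9 and 14.3 CPM in intact replicate 1 and at 405 and 139 CPM in intact replicate 2.

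Mitochondrial ribosomal protein genes were slightly lower in castrated than in intact tumors, and the difference was about as large as that between the intact samples. Of the 78 genes, 77 passed the filter on low counts (CPM above 1 in at least 2 samples). The exception was Mrpl53, which was listed at 0 reads in all 5 libraries. Its annotated span overlaps that of Ccdc142 at chr6:83109108-83109932 of mm10. Among the 77 genes, 72 had a log2 fold change (castrated minus intact) below 0 and 5 above 0. The median was -0.31, a fold of 0.806, whereas the median over all 14612 genes tested was -0.03 and 52.15% of those were below 0. Without intact replicate 2, 62 of the 77 were below 0 and the median was -0.21, and without intact replicate 1 these values were 71 and -0.39.

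No single gene of the set passed the test after adjustment. With edgeR's quasi-likelihood test and Benjamini-Hochberg adjustment, where a call needed an adjusted p under 0.05 together with a log2 fold change larger than 1 in size, 0 of the 77 were called, and so were 0.00% of all genes tested. The lowest adjusted p in the set was 0.290. At an unadjusted p under 0.05, 4 of the 77 were lower (5.19%) and 0 were higher, whereas 6.28% of all genes tested were lower and 8.74% were higher at that level. The share of lower genes was thus near the background. The groups did not overlap, with every castrated sample below both intact samples, for 29 of the 77 (37.7%), against 16.1% of all genes tested. In the opposite direction this held for 1 of the 77, Mrps31, against 17.0% of all genes tested. DESeq2 called 989 genes over the whole table and 0 of them in the set, and gave 12 genes of the set an unadjusted p under 0.05 at lower levels, against 8.64% of all genes tested.

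**Figure D1:**
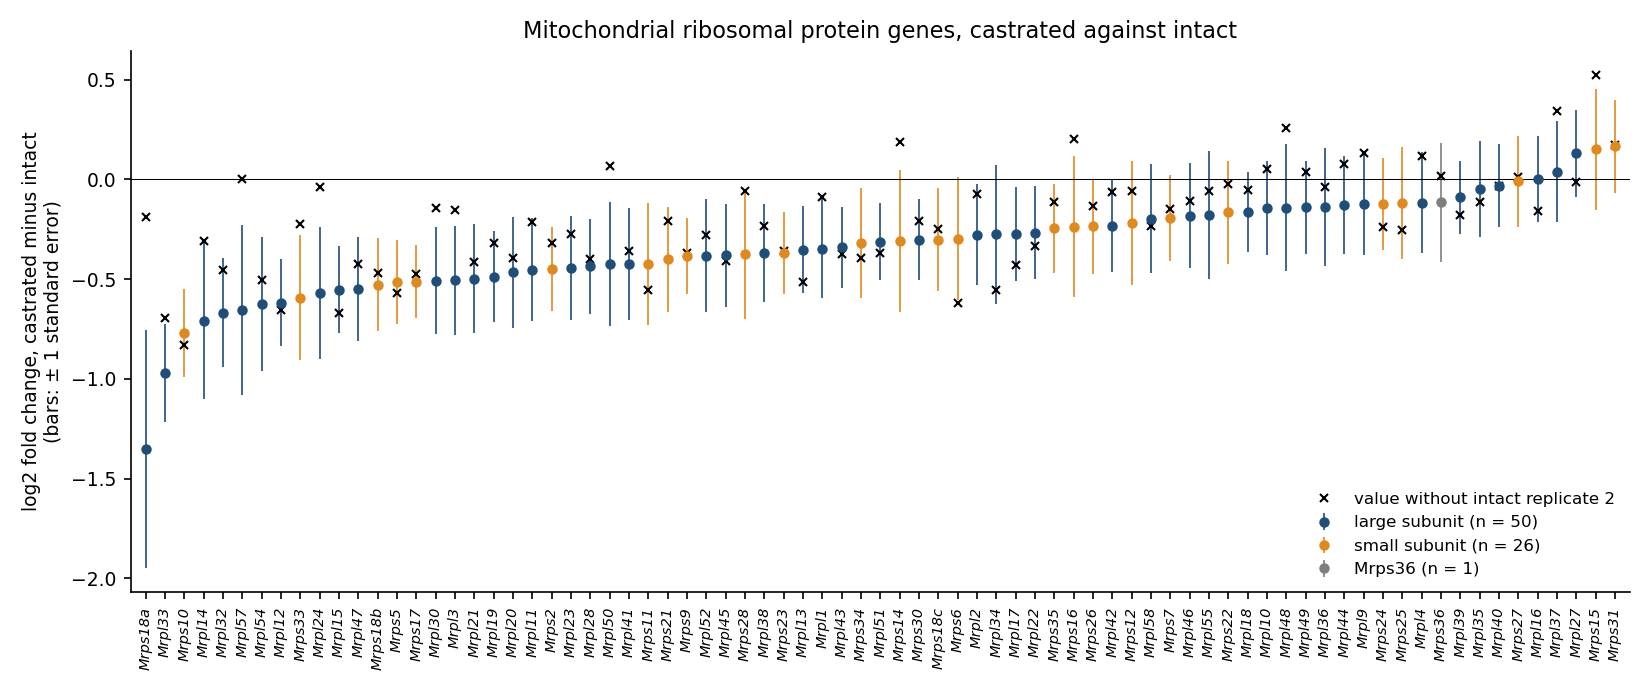
Log2 fold change (castrated minus intact, y axis) of each of the 77 mitochondrial ribosomal protein genes tested (x axis, in order of the value), with bars of 1 standard error and crosses for the same value without intact replicate 2. Of the points, 72 lie below 0, and the crosses of Mrps18a, Mrpl57 and Mrpl24 lie far above their points.

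The mean log2 level of the set did not separate the groups, whereas its share of all counts did, by a small margin. Averaged over the 77 genes on the log2 scale and set against the mean of the intact samples, the castrated replicates 1, 2 and 3 were at -0.14, -0.44 and -0.39 and the intact replicates at -0.14 and 0.14. Castrated replicate 1 thus lay at the level of intact replicate 1, and the other 2 castrated samples lay below both intact samples. The highest of the 5 values was that of intact replicate 2 for 56 of the 77 genes (72.7%), compared with 31.3% of all genes tested, and the lowest was that of castrated replicate 2 for 42. For 37 of the 77, intact replicate 1 lay within the range of the castrated samples. As a share of all counts, the set took 0.255%, 0.199% and 0.210% in castrated and 0.260% and 0.300% in intact samples. On this scale every castrated sample lay below both intact samples, castrated replicate 1 only just. Since these are bulk samples, fewer cells rich in mitochondria and less RNA per cell cannot be told apart.

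The genes with the lowest unadjusted p belonged to both subunits. Mrpl33, a small protein of the large subunit near the site where transfer RNA leaves (chr5:31613951-31622644, plus strand), was at 34.5, 28.8 and 29.8 CPM in castrated and 48.8 and 73.1 CPM in intact samples. All castrated samples were below both intact samples, with means of 31.1 ± 3.07 (SD, n = 3) and 60.9 ± 17.2 CPM (SD, n = 2). Its log2 fold change was -0.97 (SE 0.25, unadjusted p = 0.0098 and adjusted p = 0.290 in edgeR), and -0.69 without intact replicate 2. Mrps10, a protein of the small subunit's head (chr17:47368887-47378679, plus strand), was at 26.4, 24.1 and 20.02 CPM in castrated and 40.6 and 39.5 CPM in intact samples. Here the intact samples were close to each other and the groups were well apart, with a log2 fold change of -0.77 (SE 0.22, unadjusted p = 0.0158, adjusted p = 0.292) that was -0.83 without intact replicate 2. 

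Mrpl12, a stalk protein that also binds the mitochondrial RNA polymerase (chr11:120484637-120488754, plus strand), was at 52.7, 41.0 and 37.1 CPM in castrated and 66.6 and 67.3 CPM in intact tumors. The log2 fold change was -0.62 (SE 0.22, unadjusted p = 0.0347, adjusted p = 0.316), and -0.65 without intact replicate 2. Mrps17, which binds the small subunit's ribosomal RNA (chr5:129715497-129718693, plus strand), was at 47.5, 41.0 and 44.4 CPM in castrated and 59.7 and 66.7 CPM in intact samples, with a log2 fold change of -0.51 (SE 0.18, unadjusted p = 0.0350, adjusted p = 0.316). For Mrps10, Mrpl12 and Mrps17 the ratio of intact replicate 2 to intact replicate 1 was 0.972, 1.01 and 1.12, so that the intact libraries were close to each other for these genes. 

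Mrps18a had the lowest log2 fold change of the set, and the value rested on a single library. It is 1 of 3 mammalian relatives of the bacterial protein S18, lies at chr17:46111004-46128908 on the plus strand, and its product sits in the large subunit despite its name. Its level was 58.2, 32.1 and 29.0 CPM after castration, against 44.1 and 159 CPM in the intact replicates. Intact replicate 1 lay within the castrated range, and the ratio of the intact samples was 3.60. The log2 fold change was -1.35 (SE 0.60, unadjusted p = 0.0696, adjusted p = 0.360) and -0.19 without intact replicate 2. The other S18 relatives did not share this pattern. Mrps18b was at 19.3, 16.0 and 17.9 CPM in castrated and 23.8 and 27.3 CPM in intact samples, and Mrps18c at 19.6, 18.9 and 14.8 against 20.5 and 23.3 CPM. Both had castrated samples below both intact samples, with log2 fold changes of -0.53 (SE 0.23, unadjusted p = 0.0707) and -0.30 (SE 0.26, unadjusted p = 0.289), the latter turning to 0.11 with a correction for gene length. The annotated neighbours of Mrps18a were not high in intact replicate 2, since Vegfa, an angiogenic growth factor, was at 333 and 157 CPM and Rsph9, a protein of cilia, at 4.35 and 3.39 CPM in intact replicates 1 and 2. They were chosen after their values were seen.

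**Figure D2:**
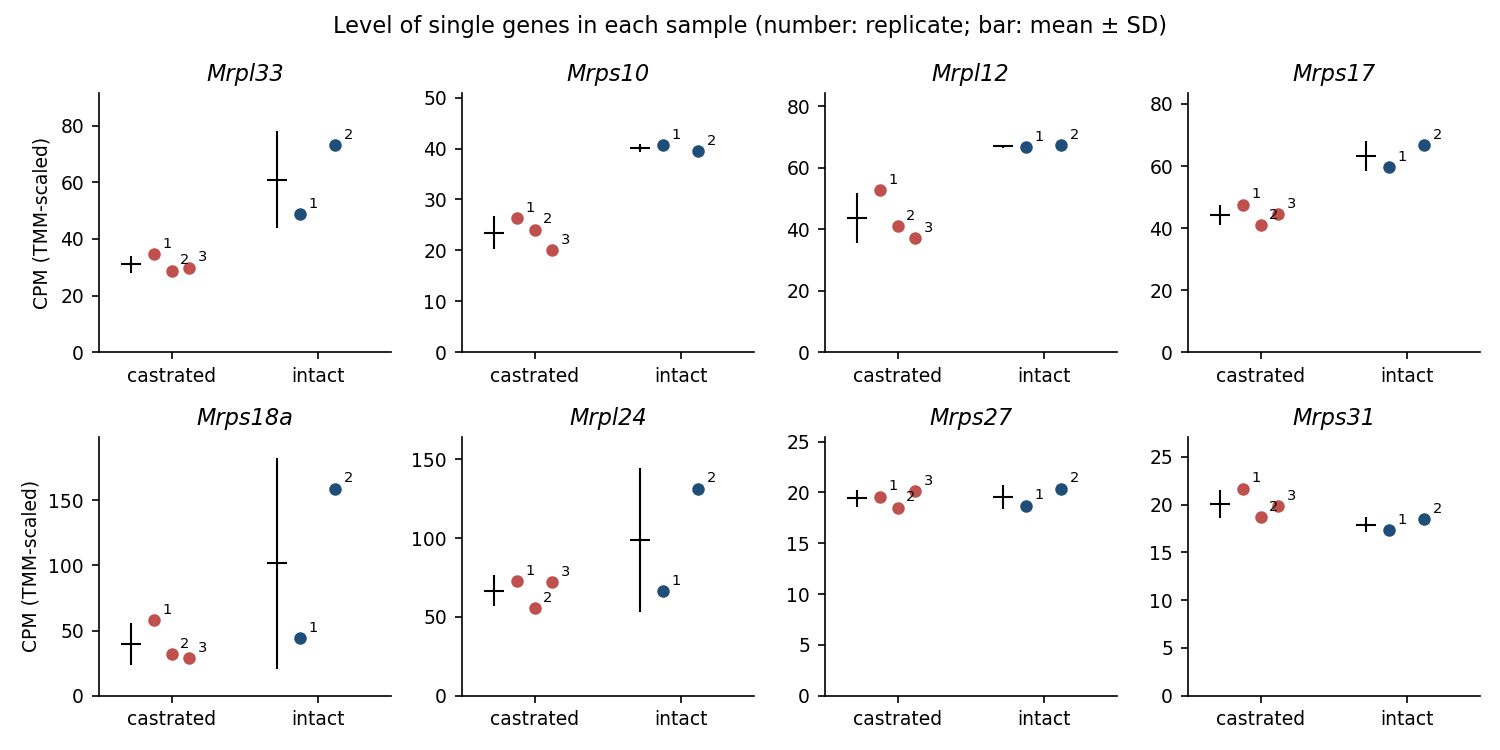
CPM (TMM-scaled, y axis from 0) of 8 mitochondrial ribosomal protein genes in each of the 3 castrated and 2 intact samples, where the number beside a point is the replicate and the black cross with its bar is the mean ± SD. Mrpl33, Mrps10, Mrpl12 and Mrps17 have every castrated sample below both intact samples, Mrps18a and Mrpl24 are high in intact replicate 2 alone, and Mrps27 and Mrps31 are nearly level.

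The remaining genes at the lower end were Mrpl14, Mrpl32 and Mrpl57. Mrpl14, which lies on the face that joins the subunits, was at 27.9, 14.5 and 26.1 CPM in castrated and 27.5 and 47.1 CPM in intact samples, with overlapping groups and a log2 fold change of -0.71 (SE 0.40, unadjusted p = 0.130) that was -0.31 without intact replicate 2. Mrpl32, a protein that the m-AAA protease matures before it joins the ribosome, was at 32.5, 23.0 and 23.4 against 35.0 and 48.5 CPM, without overlap and with a log2 fold change of -0.67 (SE 0.27, unadjusted p = 0.0565). Mrpl57 was at 22.7, 14.9 and 15.3 against 17.1 and 38.4 CPM, with a log2 fold change of -0.65 (SE 0.42, unadjusted p = 0.181) that was 0.0042 without intact replicate 2.

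At the other end of the order, the levels were nearly the same in both groups. Mrps27, a pentatricopeptide repeat protein of the small subunit, was at 19.6, 18.5 and 20.1 CPM in castrated and 18.7 and 20.4 CPM in intact samples, a log2 fold change of -0.01 (SE 0.23), or 0.01 without intact replicate 2. Mrpl16 had a log2 fold change of 0.0019 (SE 0.22) and Mrpl37 of 0.04 (SE 0.25), both with overlapping groups, and -0.16 and 0.34 without intact replicate 2. Mrpl27, Mrps15 and Mrps31 were the highest, at 0.13 (SE 0.22), 0.15 (SE 0.30) and 0.16 (SE 0.23), and without intact replicate 2 at -0.01, 0.52 and 0.17. Mrps31 was at 21.7, 18.7 and 19.9 CPM in castrated and 17.3 and 18.5 CPM in intact samples, so that the groups lay side by side without overlap, by a difference smaller than its SE. Over all 77 genes the standard error ran from 0.18 to 0.60 with a median of 0.25, and 60 of the log2 fold changes were smaller than 0.5 in size.

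Both subunits had nearly the same median. Proteins of the large subunit, assigned by their place in the structure, numbered 50, with a median of -0.34 for the log2 fold change, 47 below 0 and 18 without overlap, that is 36.0% against 16.1% of all genes tested (median -0.20 without intact replicate 2). Those of the small subunit had a median of -0.30 over 26 genes, with 24 below 0 and 11 (42.3%) that did not overlap (median -0.23 without intact replicate 2). Mrps30 and Mrps18a are counted with the large subunit here, because their products are found there, and Mrps36, a component of 2-oxoglutarate dehydrogenase, is counted with neither. Ribosomal proteins carry family names that show whether a family is shared with bacteria or is named for mitochondria alone, and the S18 relatives Mrps18a and Mrps18b have names of the mitochondrial kind. Within the large subunit, the 29 proteins with a bacterial family name had a median of -0.44 (-0.27 without intact replicate 2) and the 21 with a mitochondrial one a median of -0.30 (-0.18). Within the small subunit, the medians were -0.34 (-0.24) for 16 proteins with a bacterial and -0.24 (-0.18) for 10 with a mitochondrial family name. These classes were not tested against each other.

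The stalk of the large subunit, which recruits translation factors, is formed by Mrpl10, Mrpl11 and Mrpl12. Their log2 fold changes were -0.14 (SE 0.23), -0.45 (SE 0.26) and -0.62 (SE 0.22), and 0.05, -0.21 and -0.65 without intact replicate 2. Mrpl11 was at 31.0, 24.0 and 29.5 CPM in castrated and 31.7 and 45.4 CPM in intact samples, with its highest castrated value just below intact replicate 1, whereas Mrpl10 overlapped at 47.9, 37.1 and 42.6 against 39.8 and 54.1 CPM. The central protuberance, a protein-rich knob of the large subunit, had the median nearest to 0, at -0.15 over 6 genes, of which 1 did not overlap (16.7%, against 16.1% of all genes tested; median -0.04 without intact replicate 2). Proteins around the exit of the peptide tunnel, where new proteins reach the inner membrane, had a median of -0.32 over 6 genes, 4 of them (66.7%) without overlap (median -0.23 without intact replicate 2). Mrpl45, which anchors the ribosome to that membrane, was at 41.6, 27.7 and 28.01 against 41.8 and 42.7 CPM. Castrated replicate 1 was thus at the intact level for this gene, and the log2 fold change was -0.38 (SE 0.26, unadjusted p = 0.199).

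Other large-subunit proteins lay between these values. Mrpl3, which reaches the peptidyl transferase centre, was at 46.1, 48.2 and 37.8 CPM in castrated and 47.5 and 77.4 CPM in intact samples (log2 fold change -0.50, SE 0.27, and -0.15 without intact replicate 2). Mrpl44, which carries a domain related to RNase III, had a log2 fold change of -0.13 (SE 0.24) that was 0.08 without intact replicate 2, and Mrpl58, a peptide release factor built into the ribosome, of -0.20 (SE 0.27). Mrps30, at -0.30 (SE 0.20), did not overlap, with 28.8, 30.5 and 31.0 against 33.8 and 40.5 CPM.

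In the small subunit, Mrps5, at the entrance of the message, was at 56.1, 40.6 and 50.3 CPM in castrated and 70.6 and 69.4 CPM in intact samples. Its intact samples agreed closely, the groups did not overlap, and the log2 fold change was -0.51 (SE 0.21, unadjusted p = 0.0539). Mrps9, whose tail reaches transfer RNA in the small subunit, also did not overlap, with 29.6, 32.0 and 30.0 against 38.3 and 41.5 CPM and a log2 fold change of -0.39 (SE 0.19, unadjusted p = 0.0959). Mrps12, the counterpart of the bacterial protein that sets decoding accuracy, overlapped at -0.22 (SE 0.31), as did Mrps16 at -0.24 (SE 0.35), Mrps22 at -0.16 (SE 0.26) and Mrps34 at -0.32 (SE 0.28). Without intact replicate 2, Mrps12, Mrps16 and Mrps22 were at -0.06, 0.20 and -0.02.

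The genes differed far more from each other in level than between groups. Per length, mean TPM over the 5 samples ran from 9.08 for Mrps25 to 205 for Mrpl52, with a median of 55.0. Mrpl52 was at 249, 153 and 171 TPM in castrated and 237 and 217 TPM in intact samples. Mrpl33 followed at 176, 148 and 150 against 261 and 293 TPM, then Mrpl24 at 181, 139 and 177 against 174 and 258 TPM, and Mrps18a with a mean of 159 TPM that rests on 343 TPM in intact replicate 2, against 78.5 to 159 TPM in the other samples. The log2 fold change of Mrpl24 was -0.57 (SE 0.33), and -0.04 without intact replicate 2. In this order, Mrpl52 and Mrpl33 were not apart beyond their spread between samples. The lowest after Mrps25 were Mrpl35 (14.0), Mrpl1 (14.8) and Mrpl17 (14.9). The median TPM of the set was 56.9, 48.5 and 48.7 in castrated and 59.5 and 52.7 in intact samples. Summed TPM was 5148, 4114 and 4211 against 5483 and 5316, so that on this scale intact replicate 2 was not above intact replicate 1.

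Cytosolic ribosomal protein genes, measured in the same libraries, were far more abundant and far more unequal between the intact samples. All 76 were tested. Their median TPM was 1559, 1429 and 1610 after castration, against 1868 and 3717 in the intact replicates 1 and 2. They took 4.41%, 3.75% and 4.39% of the counts after castration, against 4.73% and 12.4%. The log2 fold change was below 0 for 76 of 76, with a median of -1.09 (a fold of 0.470), and 22 had an unadjusted p under 0.05, all lower (28.9%, against 6.28% of all genes tested). For 76 of 76 the highest value was that of intact replicate 2, and 43 did not overlap (56.6%, against 16.1%). Without intact replicate 2, 60 of 76 were below 0 and the median was -0.21, the same to 2 decimals as that of the mitochondrial set. The summed TPM of cytosolic over mitochondrial ribosomal protein genes was 24.9, 27.7 and 30.4 after castration, against 26.5 and 59.3 in the intact replicates. The groups therefore overlapped in this ratio, and it was intact replicate 2 that differed.

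**Figure D3:**
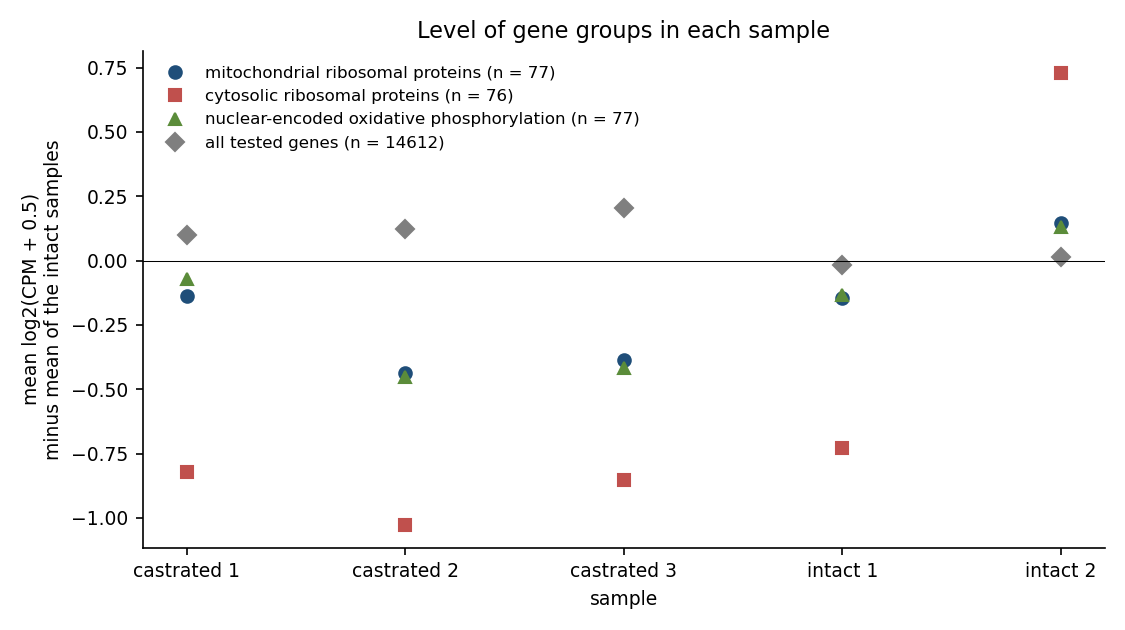
Mean log2(CPM + 0.5) of 4 gene groups in each sample, minus the mean of the intact samples (y axis), for the 3 castrated and 2 intact samples (x axis). The cytosolic ribosomal protein genes lie between -1.03 and -0.73 in 4 samples and at 0.73 in intact replicate 2, whereas the mitochondrial set and the nuclear-encoded oxidative phosphorylation genes stay between -0.45 and 0.14.

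The same contrast was made protein by protein in 27 pairs of a mitochondrial and a cytosolic protein from one universal family, that is, one found in ribosomes of all domains of life. In 26 of the 27 pairs the mitochondrial gene had a higher log2 fold change than its cytosolic counterpart, with median log2 fold changes of -0.39 and -1.10 and a median difference within pairs of 0.75. Differences ranged from -0.22 for family uL14 (Mrpl14 and Rpl23), the exception, to 1.64 for family uS15 (Mrps15 and Rps13). For family uL11, Rpl12 was at 820, 714 and 839 CPM in castrated samples and 936 and 3754 CPM in intact replicates 1 and 2 (log2 fold change -1.57, SE 0.62), whereas that of Mrpl11 was -0.45. Without intact replicate 2 these were -0.28 and -0.21. For family uS9, Rps16 was at 378, 379 and 454 against 438 and 1515 CPM (-1.27, SE 0.53, and -0.16 without intact replicate 2), and Mrps9 at -0.39. For family uL3, Rpl3 was at 899, 858 and 931 against 728 and 2408 CPM (-0.81, SE 0.54, and 0.26 without intact replicate 2), and Mrpl3 at -0.50. In each of these cytosolic genes, intact replicate 1 lay within or close to the castrated range.

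The pairs were no longer apart without intact replicate 2. The median difference then was -0.01, and the mitochondrial gene had the higher log2 fold change in 12 of 27 pairs. The within-pair ratio of TPM had groups that did not overlap in 5 of the 27 pairs, all with a lower ratio of cytosolic to mitochondrial in castrated samples. Among single genes, 16.1% of all those tested were lower in CPM without overlap. No such share was computed for ratios of 2 genes, so the count of pairs has no matched background. The median ratio on the log2 scale was 4.99, 5.07 and 5.19 after castration, against 4.96 and 6.15 in the intact replicates. Cytosolic ribosomal protein genes have many processed pseudogene copies, which can share reads with the parent gene, so the level of any one of them is uncertain.

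**Figure D4:**
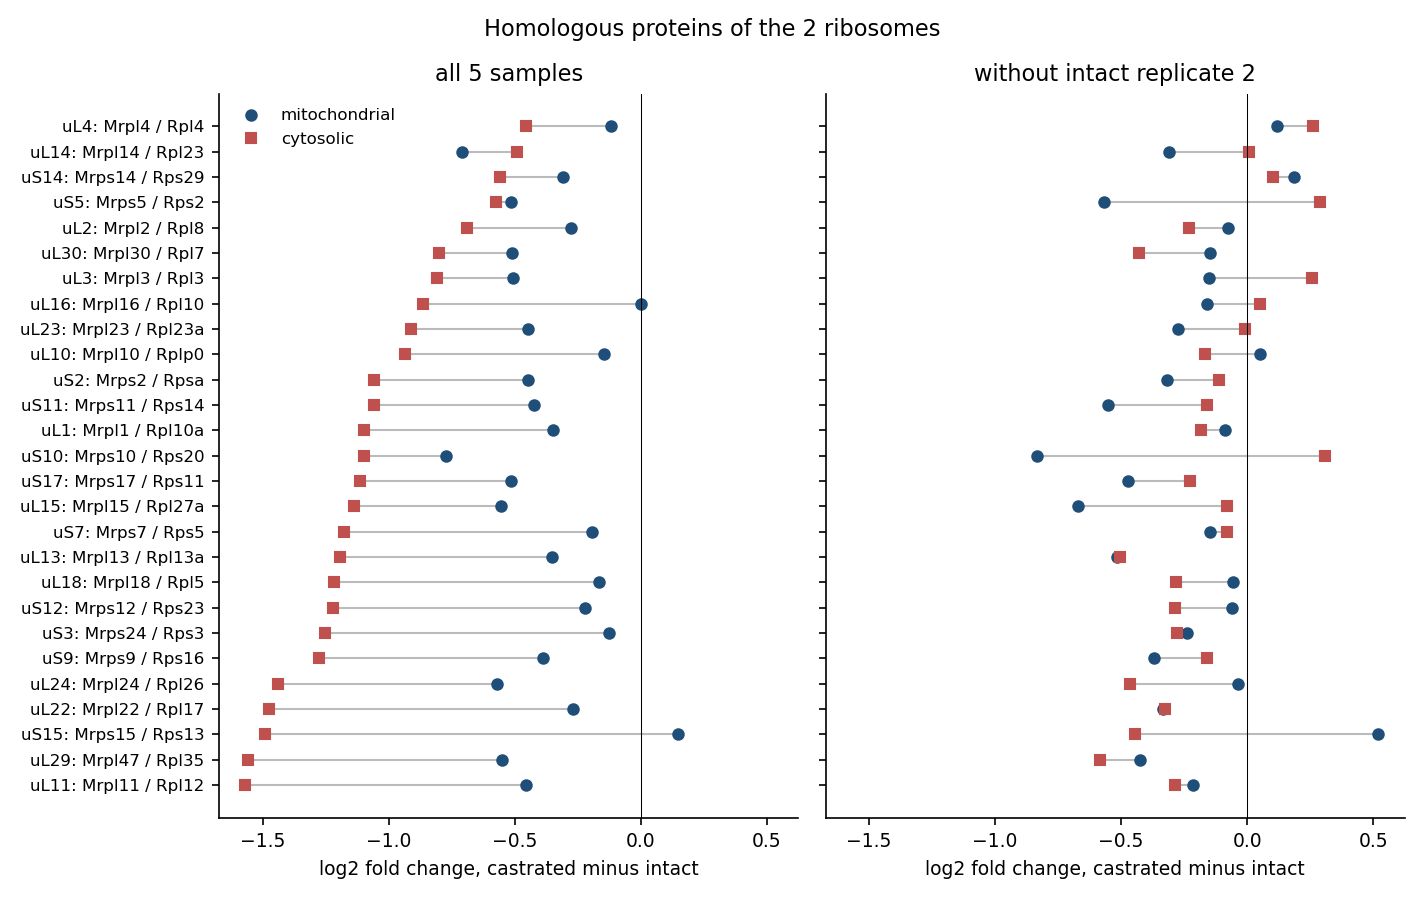
Log2 fold change (castrated minus intact, x axis) of the mitochondrial (circles) and cytosolic (squares) gene of 27 homologous pairs (y axis, by universal family), with all 5 samples on the left and without intact replicate 2 on the right. On the left the squares lie to the left of the circles in 26 pairs, and on the right the median difference is -0.01.

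Genes that work with the mitochondrial ribosome were described from lists of known function. The counts in the lists that follow stand beside 16.1% of all genes tested that were lower and 17.0% that were higher without overlap, and 6.28% and 8.74% that were lower and higher at an unadjusted p under 0.05. Of 5 ribosomal proteins with other symbols, 4 did not overlap, at lower levels in castrated samples, and the median log2 fold change was -0.43 (-0.36 without intact replicate 2). Dap3, a GTP-binding protein of the small subunit also known from studies of cell death, was at 72.1, 53.7 and 53.5 CPM in castrated and 74.4 and 86.8 CPM in intact samples (-0.43, SE 0.22, unadjusted p = 0.104). Ptcd3, a pentatricopeptide repeat protein of the small subunit, was at 45.5, 31.2 and 34.9 against 48.9 and 75.02 CPM (-0.73, SE 0.28, unadjusted p = 0.0464), and at -0.44 without intact replicate 2. Assembly factors had a median of -0.27 (-0.20 without intact replicate 2) over 22 genes, with 18 below 0, 9 (40.9%) without overlap and 0 at an unadjusted p under 0.05. Translation factors of the mitochondrion had a median of -0.18 over 11 genes, with 8 below 0, and of 0.07 with 5 below 0 without intact replicate 2. Guf1, a translational GTPase, stood out among them at 26.3, 26.8 and 29.2 against 44.4 and 57.8 CPM (-0.90, SE 0.21, unadjusted p = 0.00729), whereas the elongation factors Tufm and Gfm1 were at 0.04 (SE 0.29) and -0.10 (SE 0.17), and Tufm at 0.37 without intact replicate 2.

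Genes that charge mitochondrial transfer RNAs had a median of -0.39 (-0.20 without intact replicate 2) over 20 genes, with 17 below 0 and 9 (45.0%, against 16.1% of all genes tested) that did not overlap at lower levels. Mars2, the methionyl enzyme, was at 22.6, 23.4 and 13.6 CPM in castrated and 74.3 and 31.8 CPM in intact samples (-1.41, SE 0.44, unadjusted p = 0.0219), here with the higher value in intact replicate 1, without which it was at -0.66. Lars2, the leucyl enzyme, went the other way and was far above the rest of its list, at 3147, 1644 and 2381 against 1201 and 670 CPM (1.35, SE 0.53, unadjusted p = 0.0476). The next in level, Iars2, was between 99.1 and 141 CPM. Whether all reads counted for Lars2 came from the message of this enzyme was not tested, so its values may not be the level of that message.

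Genes for replication and transcription of mitochondrial DNA had a median of -0.38 (-0.19 without intact replicate 2), with 10 of 10 below 0, 5 without overlap (against 16.1% of all genes tested) and 3 at an unadjusted p under 0.05 (against 6.28%). These 3 were the helicase Twnk (-1.06, SE 0.29), the RNA-stabilizing protein Slirp (-0.91, SE 0.29) and the single-stranded DNA-binding protein Ssbp1 (-0.86, SE 0.20), the last at 42.2, 33.9 and 35.4 CPM in castrated and 61.7 and 73.7 CPM in intact samples. Without intact replicate 2 these were at -0.65, -0.56 and -0.77. The span of Twnk overlaps that of Mrpl43, and without the strand setting of the counting their reads may not be fully separate. The transcription factor Tfam was at -0.28 (SE 0.19) and the polymerase Polrmt at -0.22 (SE 0.25), the latter at -0.14 without intact replicate 2. 

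Among 9 nuclear regulators known to act on genes for mitochondrial proteins, 8 were below 0 and 4 did not overlap (44.4%, against 16.1% of all genes tested), with a median of -0.31 (-0.35 without intact replicate 2). The coactivator Ppargc1a was at 17.7, 12.7 and 11.3 CPM in castrated and 45.4 and 26.3 CPM in intact samples (-1.37, SE 0.35, unadjusted p = 0.0102), and at -0.90 without intact replicate 1. Gabpa, the DNA-binding part of the ETS factor GABP, was at -0.31 (SE 0.21), and Nrf1 and Yy1 at -0.09 (SE 0.27) and -0.16 (SE 0.19). Without intact replicate 2 these were at -0.18, -0.35 and -0.08. 

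Nuclear-encoded oxidative phosphorylation genes had almost the same median and the same order of samples as the ribosomal proteins. Of 82 in the table, 77 were tested, with a median log2 fold change of -0.33 and 65 below 0 (-0.28 and 59 without intact replicate 2). At an unadjusted p under 0.05, 13 were lower (16.9%, against 6.28% of all genes tested) and 1 was higher (against 8.74%). The groups did not overlap for 31 at lower levels (40.3%, against 16.1%) and for 3 at higher levels (against 17.0%). Relative to the intact mean, their level was -0.07, -0.45 and -0.42 in castrated and -0.13 and 0.13 in intact samples. Cox7b, a subunit of cytochrome c oxidase, was at 143, 100 and 105 CPM in castrated and 181 and 307 CPM in intact samples (-1.07, SE 0.30, and -0.68 without intact replicate 2), and Ndufa4, of the same complex, at 173, 123 and 164 against 216 and 270 CPM (-0.67, SE 0.23). The 3 genes higher without overlap were Sdha (0.27, SE 0.19) and Sdhb (0.38, SE 0.20), catalytic subunits of succinate dehydrogenase, and Cox6b2, an isoform best known from testis, at 10.6, 6.01 and 6.38 against 1.88 and 1.49 CPM (2.18, SE 0.47). Of 12 other proteins of the mitochondrial matrix and membranes, 11 were below 0, with a median of -0.29 (-0.34 without intact replicate 2). They included the chaperonin Hspe1 (-1.04, SE 0.31, and -0.64 without intact replicate 2) and the import receptor Tomm20 (-0.88, SE 0.24), while citrate synthase Cs was at -0.04 (SE 0.19) and, without intact replicate 2, at -0.19. Genes of the mitochondrial genome itself were not analysed here.

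**Figure D5:**
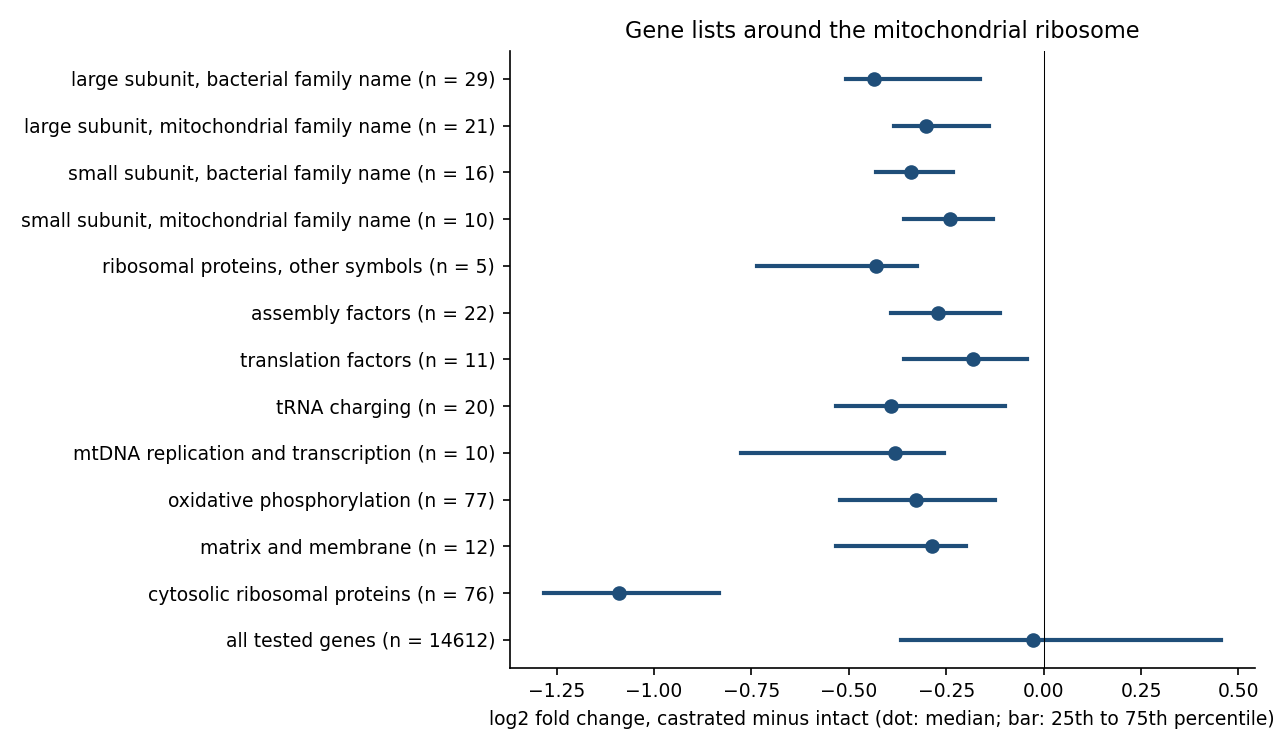
Median (dot) and 25th to 75th percentile (bar) of the log2 fold change (castrated minus intact, x axis) in gene lists around the mitochondrial ribosome (y axis, with the number of genes tested). The lists of mitochondrial genes shown have medians between -0.44 and -0.18. The cytosolic ribosomal protein genes have a median of -1.09 and all tested genes of -0.03.

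Markers of macrophages and smooth muscle differed between the groups without overlap, and markers of fat and T cells varied between samples. All 10 adipocyte markers were detected, and their summed level was 63.6, 719.7 and 672.2 CPM in castrated and 51.8 and 98.8 CPM in intact samples, with Fabp4 the most abundant. Adipoq, a defining gene of fat cells, was at 0.523, 68.8 and 68.3 CPM against 0 and 0.093 CPM. The castrated samples with high fat markers, replicates 2 and 3, were the ones with the lowest level of mitochondrial ribosomal protein genes, whereas castrated replicate 1 lay within the intact range of the summed fat markers, although 6 of the 10 had every castrated sample above both intact ones, and at the level of intact replicate 1 for the ribosomal protein genes. All 10 macrophage markers were higher in every castrated than in any intact sample, and their sum was 2647, 7372 and 3008 against 1110 and 1679 CPM, most of it Lyz2. All 7 smooth muscle markers were likewise higher without overlap, with a sum of 381.3, 687 and 622 against 200 and 139 CPM and Acta2 as the most abundant. The 8 epithelial markers did not separate the groups, with a sum of 4232, 3865 and 4810 against 6146 and 4367 CPM. The 5 T cell markers tested summed to 11.9, 43.9 and 40.3 CPM in castrated and 2.91 and 32.3 CPM in intact samples, again with the lowest value in intact replicate 1. Of 8 skeletal muscle markers 2 were tested and of 5 brown fat markers 1, and the sums of both lists stayed under 6 CPM. Of 9 proliferation genes, 8 were lower in every castrated sample, and Mki67 was at 18.7, 30.5 and 40.3 against 101 and 128 CPM. The part of these markers in the level of mitochondrial ribosomal protein genes was not tested.

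The genes are spread over 17 chromosomes, with 11 on chromosome 11, 8 on chromosome 17, 7 on chromosome 6 and 0 on chromosomes X and Y. A divergent neighbour, a tested gene on the other strand whose start lies within 1000 bases, was found for 25 of the 77 (32.47%), compared with 11.44% of all genes tested. Mrpl46 and Mrps11 are such a pair themselves, with starts 42 bases apart, and had log2 fold changes of -0.18 and -0.42. Mrps12 and the mitochondrial seryl enzyme Sars2, 147 bases apart, were at -0.22 and -0.40, and Mrpl47 and the complex I subunit Ndufb5, 308 bases apart, at -0.55 and -0.46. The values without intact replicate 2 were -0.11 and -0.55 in the pair of Mrpl46 and Mrps11, -0.06 and -0.26 in that of Mrps12 and Sars2, and -0.42 and -0.23 in that of Mrpl47 and Ndufb5. Other pairs were further apart. Mrpl27 was at 0.13 and its neighbour Eme1, a DNA repair nuclease subunit 48 bases away, at -1.72, and Mrpl57 was at -0.65 with Ska3, a protein of the mitotic spindle 76 bases away, at -2.09. In the fit without intact replicate 2, Mrpl57 was at 0.0042 and Ska3 at -1.78, and Mrpl27 was at -0.01, with Eme1 below the minimum level for testing. The span of 11 of the 77 overlapped that of another gene (14.29%, against 21.94% of all genes tested). Among them were Mrpl19 with Gcfc2, Mrpl24 with Rrnad1 and Mrps27 with 6430562O15Rik. Counts of such genes are uncertain where strand was not used.

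The start regions of the genes of the set were read from RefSeq (GRCm38.p6), in windows of 250 bases before to 50 bases after the start. Such windows were held for 69 of the 78 genes. The core of ETS factor sites, CCGGAAG on either strand, was found for 37.7% of them, for 41.1% of cytosolic ribosomal protein genes, for 18.2% of the genes tested and for 9.93% of all genes with such a window. One arm of the NRF1 site, TGCGCA on either strand, was found for 30.4%, 19.6%, 14.8% and 8.79% in the same order, and the YY1 core, AAGATGG on either strand, for 18.8%, 16.1%, 7.92% and 7.28%. The E-box CACGTG was no more frequent than elsewhere, at 7.25% of the mitochondrial set, 11.2% of the genes tested and 8.09% of all genes, and TATAAA was found for 7.25%, 9.55% and 15.7%. An ETS core and a YY1 core can share 3 letters, and the other motifs were searched apart. A C followed by 4 C or T within 5 bases of the start, as in the pyrimidine tract that marks messages of the cytosolic translation machinery, was found for 20.3% of the mitochondrial set, 48.2% of cytosolic ribosomal protein genes and 22.2% of the genes tested. A match of letters is not a bound site, and median GC content was 58.7% in the windows of the set and 60.3% in those of all genes tested.

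Stretches of 130 bases are printed, from 110 before to 20 bases after the start and 5′ to 3′ on the strand of the gene. Capitals mark matches to the motifs above and to the pyrimidine tract. Mrpl33 was taken as the gene with the lowest p, and Mrpl11 and Rpl12 as the pair of family uL11. Mrps18a and Mrpl22 (log2 fold change -0.27, SE 0.23) were taken from the genes of the set with the most kinds of motif in this stretch. Their motifs are therefore no finding about genes picked by level. Mrpl36, which holds an E-box, an NRF1 arm and a YY1 core (log2 fold change -0.14), ranked with them and is not printed.
Mrpl33 (chr5:31613841-31613970, plus strand): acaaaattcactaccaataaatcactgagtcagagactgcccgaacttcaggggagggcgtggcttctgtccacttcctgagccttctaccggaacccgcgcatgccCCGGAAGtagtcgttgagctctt
Mrps18a (chr17:46110894-46111023, plus strand): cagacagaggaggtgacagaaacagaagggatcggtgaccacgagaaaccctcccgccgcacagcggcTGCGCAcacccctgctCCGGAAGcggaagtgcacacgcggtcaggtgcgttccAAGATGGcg
Mrpl22 (chr11:58171554-58171683, plus strand): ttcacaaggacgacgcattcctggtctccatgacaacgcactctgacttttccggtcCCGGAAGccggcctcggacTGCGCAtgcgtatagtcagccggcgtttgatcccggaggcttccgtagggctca
Mrpl11 (chr19:4962196-4962325, plus strand): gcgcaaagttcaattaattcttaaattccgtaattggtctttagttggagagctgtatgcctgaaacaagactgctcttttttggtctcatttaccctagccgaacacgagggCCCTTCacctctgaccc
Rpl12 (chr2:32961602-32961731, plus strand): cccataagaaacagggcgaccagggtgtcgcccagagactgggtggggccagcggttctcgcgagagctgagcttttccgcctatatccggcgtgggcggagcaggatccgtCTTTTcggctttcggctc
Mrpl33 holds an ETS core across its start, Mrps18a holds an ETS core, an NRF1 arm and a YY1 core, and Mrpl22 an ETS core and an NRF1 arm. Mrpl11 and Rpl12, whose log2 fold changes were -0.45 and -1.57, both hold a pyrimidine tract and none of the other motifs in this stretch. Mrpl33 and Mrps18a share the ETS core, and their levels differed in pattern over the samples as given above.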

How the data were processed

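Bulk RNA-seq of prostate tumor tissue of TripleTg mice was used, with 3 castrated and 2 intact samples grouped by their labels. Per the labels and methods, the authors extracted RNA (RNeasy), depleted ribosomal RNA (Kapa HyperPrep with RiboErase), and used Trimmomatic 0.39 for trimming, STAR 2.7.9 for alignment to mm10 and HTSeq 2.0.2 for counting per gene. What was deposited are raw counts, and the strand setting of the counting is not given in the sources used here. The authors' table also gives gene coordinates, which count from 1, and a gene length, which was used for TPM and for the length correction.

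The tools were edgeR 4.0.16, DESeq2 1.42.0 and limma 3.58.1 in R 4.3.3, and pandas 2.3.3 for promoter windows. The filter kept the 14612 genes whose CPM exceeded 1 in 2 or more samples. They were tested by the quasi-likelihood F-test of edgeR on TMM-scaled libraries, with Benjamini-Hochberg adjustment over all of them, following the study's filter and thresholds. The study describes its test as run on TPM values and reports a list of genes that differed between castrated and intact samples. Counts were used here, and no comparison with that list is made. The SE was taken from the log2 fold change and the F statistic, as their quotient after a square root of F. Unadjusted p values are from the same test and are not adjusted for the number of genes. The genes of the set and the other lists were chosen with earlier results of these data known, so lists are described by counts and medians with no test. Named genes were the 6 lowest and 6 highest log2 fold changes of the set, the 4 highest mean TPM, proteins of stated roles whatever their values, 3 homologous pairs and 1 to 4 genes per other list. Genes named for another reason, such as the 4 at an unadjusted p under 0.05, Lars2, Guf1, Mars2, Cox6b2 and the neighbours, were chosen after their values were seen. Mrpl22 was printed for the motifs at its start, with its values known.

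Same-group samples differed by a chi-square per gene of 133.6 or more, so none is a repeat of another. Replicate numbers come from the labels. Alternatives were DESeq2, the likelihood ratio test, 3 scalings, 2 filters, the replicate number as a block, a gene length correction, leaving out each replicate and, chosen after seeing the data, the older quasi-likelihood fit and a GC correction. The procedures were tested on simulated data. The rule on outliers needs groups of 4 or more samples and was not applied.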

Additional observations from a re-analysis of the deposited data

How the results depend on the processing

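With 2 intact samples that differ from each other, every comparison here is limited by the number of samples and not by depth. Leaving out 1 sample leaves 1 intact sample in some fits, which is then assumed to vary like the castrated ones. Over these fits the median log2 fold change was from -0.42 (without castrated replicate 1) to -0.21 (without intact replicate 2) for the mitochondrial set, from -1.63 (without intact replicate 1) to -0.21 (without intact replicate 2) for the cytosolic genes and from -0.012 (without intact replicate 2) to 1.11 (without intact replicate 1) for the pairs. Genes of the set at an unadjusted p under 0.05 and lower numbered from 1 (without castrated replicate 3) to 10 (without intact replicate 1), with 7 without castrated replicate 1 and 2 without castrated replicate 2 or intact replicate 2. The share of all genes at that level was 2.68% and 10.5% in the first pair of these fits, and 5.78%, 2.67% and 6.62% in the others. Those without overlap at lower levels numbered 52, 31 and 30 without castrated replicates 1, 2 and 3, and 60 and 43 without intact replicates 1 and 2, against 24.7%, 19.7%, 18.5%, 35.6% and 34.4% of all genes. At higher levels they numbered 1, 1, 2, 3 and 4 in the same order, against 25.1%, 19.96%, 19.2%, 36.4% and 33.0%, and genes called over the whole table from 0 to 1.

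The number of genes called over the whole table was 989 by DESeq2 and 369 by the likelihood ratio test of edgeR, against 0. Lower genes of the set at an unadjusted p under 0.05 numbered 12 with DESeq2 and 0 with the replicate block, against 8.64% and 1.83% of all genes. Genes higher without overlap numbered 0 with upper quartile factors and 3 with the gene length correction, against 16.7% and 17.9% of all genes. With the gene length correction the medians were -0.20 for the set, -0.75 for the cytosolic genes and 0.56 for the pairs, and with the replicate block -0.27, -0.92 and 0.65. Same-numbered samples had correlations of their deviations of 0.165 (replicate 1) and -0.0371 (replicate 2) over all genes tested. The labels tie them by number alone, and these values do not settle whether they were paired.

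Some log2 fold changes changed sign, none of which had passed the threshold after adjustment. That of Mrps27 was 0.020 with library size only. That of Mrpl16 was -0.0015 with DESeq2, -0.0021 with RLE factors, -0.0040 with upper quartile factors and -0.0035 with edgeR's own filter. That of Mrpl37 was -0.047 with the GC correction, and those of Mrpl52 and Mrps18c were 0.11 and 0.11 with the gene length correction. When samples were left out, values ran from -1.10 to 0.0042 for Mrpl57, from -0.049 to 0.032 for Mrps27, from -0.16 to 0.15 for Mrpl16, from -0.22 to 0.34 for Mrpl37, from -0.012 to 0.26 for Mrpl27, from -0.15 to 0.52 for Mrps15, from -0.33 to 0.052 for Mrpl10, from -0.32 to 0.078 for Mrpl44, from -0.58 to 0.20 for Mrps16 and from -1.41 to 0.26 for Rpl3. The cause of these changes was not tested.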
